A study of Zea mays with 8 samples.

Results

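The 7 maize genes described here are the oleosin ole1 (GRMZM2G337229), the seed tonoplast aquaporin TIP3-1 (GRMZM2G305446), the dehydrin and late embryo-type genes MGL3 (GRMZM2G096475), dhn1 (GRMZM2G079440), dehydrin3 (GRMZM2G373522) and RAB15 (GRMZM2G165901), and Emb12 (GRMZM2G119691). They are a given list of gene IDs, out of 39423 genes in the deposited table, and each gene's level is the sum of its transcript entries. The study measured RNA by sequencing in W22 maize endosperm at 12 days after pollination. One group carried ded1-ref, the reference mutant allele of the ded1 gene (GRMZM2G121570), and the other was made of normal kernels, whose genotype the labels give only as normal. Each group had 4 libraries, and each library was a pool of kernels. The pools came as 4 pairs of ded1-ref and normal siblings, so that replicate 1 of each group shares a family, and likewise for the others. Every pool was W22, and no treatment is recorded.

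Oleosins coat the oil bodies in which seeds store triacylglycerol, chiefly in the embryo and the aleurone, the outer layer of the endosperm. Dehydrins and other late embryogenesis abundant (LEA) proteins are very hydrophilic proteins that build up as seeds mature and dry, and many of their genes respond to abscisic acid. TIP3 aquaporins are water channels in the membrane of protein storage vacuoles and belong to the same maturation programme, in which the transcription factor VP1 takes part. The name Emb12 comes from a mutant with defective embryos. The gene encodes an initiation factor of plastid translation and no LEA protein, so its name places it beside the others by the word embryo and not by function.

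Levels are in TPM, which are reads divided by transcript length and expressed as a share of the library on a fixed total. The change of the median gene between the groups was -0.68 in log2 TPM, so each change is given on a pair of scales. The TPM test compared log2(TPM + 1) between the groups with limma, with the sibling pair as a block. The scaled test did the same after each library's TPM was divided by a median-of-ratios factor, which puts the median gene at -0.0031. Changes are log2 differences, ded1-ref minus normal, with their standard error (SE), and they understate the fold of genes near 1 TPM. P-values were adjusted by the Benjamini-Hochberg method over the 13671 genes that reached 1 TPM in 4 or more libraries, and 0.05 was the threshold. The words rose and fell are kept for genes that passed both tests in that direction. Both tests use the same libraries, so passing both is not a second, independent result. All 482 genes that passed as higher in the TPM test also did so in the scaled test. Likewise, all 1444 that passed as lower in the scaled test also did so in the TPM test.

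Libraries held 10536845 to 20725033 reads, as recovered from the TPM values. The ded1 transcript itself lay between 37.0 and 42.0 TPM in the libraries labelled normal and between 67.3 and 101 TPM in those labelled ded1-ref, so its level gives no check of a loss of transcript. In these pools of whole tissue, fewer cells of a type and less RNA per cell cannot be told apart. Of 11 embryo markers, 4 were at 0 in all libraries (wus1, wox5B, wox9A and wox9C) and 9 were under 1 TPM in all of them. Their summed level was 17.3 to 21.1 TPM in normal and 11.0 to 22.1 TPM in ded1-ref libraries, which overlap. After the scaling described above it was 12.7 to 17.1 in normal and 18.3 to 28.3 in ded1-ref, which do not overlap. Of the 2 embryo markers tested 1 passed as higher in the scaled test and 0 in the TPM test, beside 12.3% and 3.53% of all tested genes. Without wox2A, which made up most of the summed level, the sum was 0.996 to 1.66 TPM in normal and 0.457 to 3.42 TPM in ded1-ref. In scaled TPM that sum was 0.734 to 1.25 against 0.761 to 3.52. The part of these markers in the results below was not tested. Genes of the starchy endosperm, zeins included, summed to 298533 to 325327 TPM in normal and 383158 to 433172 TPM in ded1-ref.

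Of the 7 genes, 6 passed the filter on low values and were tested, of which 2 rose (TIP3-1 and MGL3) and 2 fell (Emb12 and dehydrin3). Both tests passed as higher for 3.53% of all tested genes and as lower for 10.6%. In the TPM test RAB15 also passed as lower, making 3 of the 6, in a comparison where 69.8% of tested genes did. In the scaled test ole1 also passed as higher, making 3 of the 6 against 12.3% of tested genes, while the 2 lower calls stood against 10.6%. In the authors' deposited table, where 7.95% of transcripts had an adjusted p under 0.05 as higher and 6.75% as lower, TIP3-1, MGL3 and dhn1 were among the higher and Emb12 and dehydrin3 among the lower. The gene under the filter was dhn1. The gene dehydrin3 passed the filter through its 4 normal libraries, all its ded1-ref libraries being under 1 TPM.

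**Figure D1:**
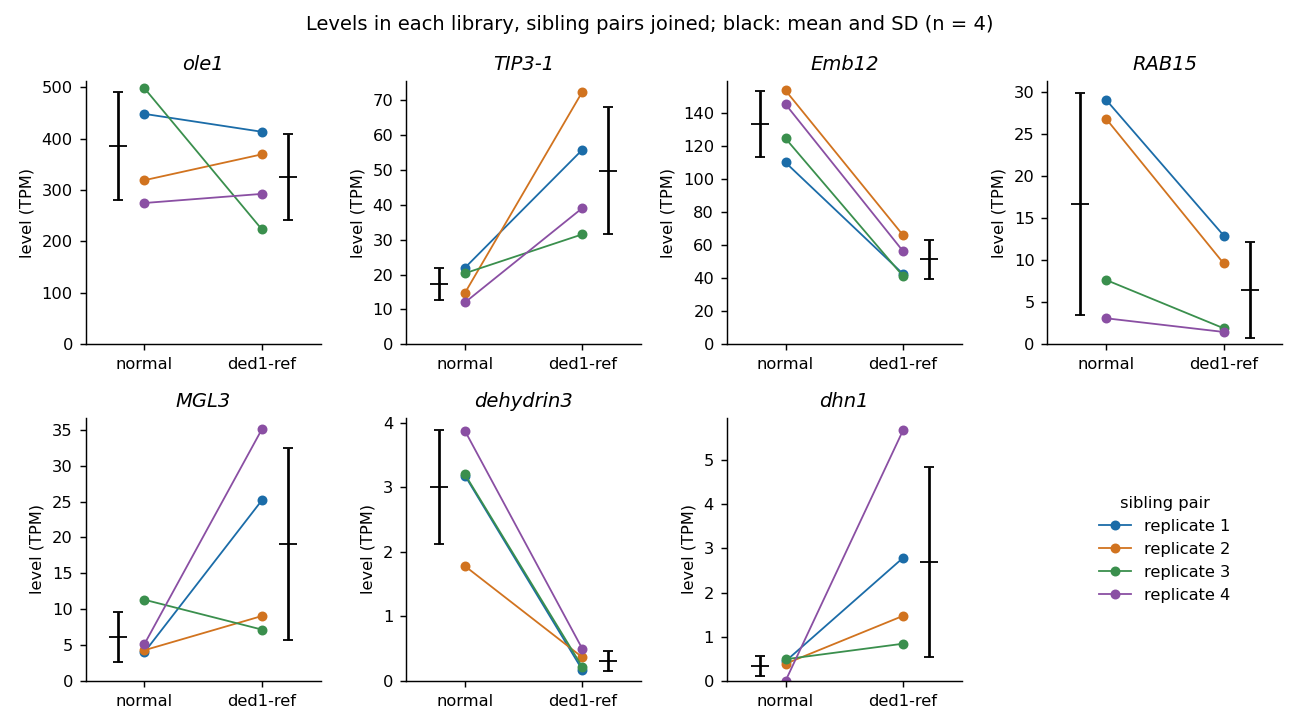
Level of each of the 7 genes in each library, in TPM on linear axes that start at 0; each point is 1 library, lines join sibling pairs, and the black bars are the group mean and SD (n = 4). The groups are apart for TIP3-1 and dhn1 as higher, a direction in which 2.14% of tested genes were apart, and for Emb12 and dehydrin3 as lower, in which 52.6% were, while for ole1, RAB15 and MGL3 they overlap.

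The vacuolar water channel TIP3-1 gave the clearest rise. Its level was 21.9, 14.7, 20.4 and 12.0 TPM in normal replicates 1 to 4 and 55.8, 72.5, 31.5 and 39.1 TPM in the ded1-ref libraries in the same order. Every ded1-ref library lay above every normal one, a separation seen in this direction for 2.14% of tested genes. The mean went from 17.2 ± 4.68 to 49.7 ± 18.2 TPM (SD, n = 4), a ratio of 2.89 in TPM and of 4.99 in scaled TPM. The limma change was 1.44 ± 0.22 (SE, adjusted p = 1.43e-04) in the TPM test and 2.25 ± 0.17 (adjusted p = 5.77e-05) in the scaled test, higher in 4 of 4 pairs. Almost all of its reads came from transcript 01, and transcript 02 held 4 reads in all normal and 21 in all ded1-ref libraries. In the authors' deposited table, transcript 01 had a log2 fold of 2.22 with an adjusted p of 1.14e-16.

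The LEA gene MGL3 rose with much more spread. Its level was 3.98, 4.27, 11.3 and 5.10 TPM in normal replicates 1 to 4 and 25.2, 9.05, 7.16 and 35.1 TPM in the paired ded1-ref libraries. Normal replicate 3 lay above ded1-ref replicates 2 and 3, so the groups overlapped in TPM. In scaled TPM they did not, as for 12.0% of tested genes in that direction. The mean went from 6.17 ± 3.47 to 19.1 ± 13.4 TPM (SD, n = 4), a ratio of 3.10. The limma change was 1.32 ± 0.40 (SE, adjusted p = 0.0096) in the TPM test and 2.07 ± 0.42 (adjusted p = 0.00719) in the scaled test. The gene was higher in 3 of 4 pairs in TPM, replicate 3 having a ded1-ref to normal ratio of 0.632, and in 4 of 4 pairs in scaled TPM. Without the filter on low values the TPM test no longer passed (adjusted p = 0.0782). The authors' deposited table gave a log2 fold of 1.98 with an adjusted p of 0.00137.

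The dehydrin dhn1, also known as RAB-17 and a widely used example of a gene induced by abscisic acid, was close to the limit of detection in normal endosperm. Its level was 0.444, 0.388, 0.491 and 0 TPM in normal replicates 1 to 4 and 2.79, 1.47, 0.842 and 5.67 TPM in the paired ded1-ref libraries. These are 10, 6, 12 and 0 reads against 97, 42, 20 and 154 reads, and a count of 0 in normal replicate 4 allows up to 0.154 TPM (3 reads, counting error only). All ded1-ref libraries lay above all normal ones, as for 2.14% of the tested genes, among which dhn1 was not. The mean went from 0.331 ± 0.224 to 2.69 ± 2.15 TPM (SD, n = 4), a ratio of 8.15 in TPM. Because dhn1 was under the filter, it was tested among all genes, where both limma tests passed as higher for 1.66%. The change was then 1.32 ± 0.38 (SE, adjusted p = 0.0353) in the TPM test and 1.69 ± 0.38 (adjusted p = 0.0419) in the scaled test, higher in 4 of 4 pairs. Leaving out any 1 pair ended the call, with adjusted p from 0.0914 to 0.215 in the TPM test and from 0.158 to 0.29 in the scaled test, and without replicate 4 the TPM change was 0.84. When TPM were set again without the zein genes, dhn1 reached the filter, with a change of 1.70 (limma adjusted p = 0.00361). It did so with the help of its ded1-ref libraries, where it is high, since normal replicate 4 was at 0. That p-value is therefore no further support for a higher level of dhn1. In the authors' deposited table its log2 fold was 2.49, with an adjusted p of 4.33e-04.

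The other dehydrin, dehydrin3, went the opposite way. Its level was 3.18, 1.78, 3.20 and 3.88 TPM in normal replicates 1 to 4 and 0.168, 0.365, 0.213 and 0.494 TPM in the paired ded1-ref libraries. These values rest on 56, 21, 58 and 50 reads in normal and on 3, 5, 4 and 9 reads in ded1-ref libraries. The lowest normal library held more than the highest ded1-ref library, as for 52.6% of tested genes in TPM. The mean went from 3.01 ± 0.881 to 0.310 ± 0.149 TPM (SD, n = 4), a level 9.72-fold lower in ded1-ref, and 5.65-fold lower in scaled TPM. The gene fell, with a change of -1.59 ± 0.20 (SE, limma adjusted p = 3.63e-05) in the TPM test and of -1.20 ± 0.18 (adjusted p = 0.0017) in the scaled test, in 4 of 4 pairs. Because dehydrin3 passed the filter through its normal libraries alone, where it is high, the fit without the filter is the one to read. There it still passed as lower, with limma adjusted p = 0.00312 in the TPM test and 0.0166 in the scaled test. A pseudocount of 0.1 TPM in place of 1 gave changes of -2.94 and -2.23. Transcript 01 held 166 reads in the normal and 13 in the ded1-ref libraries, and transcript 02 held 19 and 8. The authors' deposited table gave transcript 01 a log2 fold of -2.64 (adjusted p = 7.19e-07) and transcript 02 one of -0.57 (adjusted p = 0.659).

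Within a library the order of the dehydrins was turned over. The ratio of dehydrin3 to dhn1 was 4.59 to 7.17 in the 3 normal libraries where dhn1 was above 0, and 0.0602 to 0.252 in the 4 ded1-ref libraries. This ratio does not depend on how libraries are scaled, and no test was run on it.

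The gene RAB15 varied more between sibling pairs than between groups. Its level was 29.0, 26.8, 7.63 and 3.08 TPM in normal replicates 1 to 4 and 12.9, 9.60, 1.89 and 1.46 TPM in the paired ded1-ref libraries. Replicates 1 and 2 were high and replicates 3 and 4 low in both groups, and the groups overlapped. Within each pair the normal library was higher, by a factor of 2.25, 2.79, 4.03 and 2.12 for replicates 1 to 4. The mean was 16.6 ± 13.2 TPM in normal and 6.46 ± 5.70 TPM in ded1-ref (SD, n = 4). The limma change was -1.20 ± 0.20 (SE, adjusted p = 2.95e-04) in the TPM test and -0.51 ± 0.17 (adjusted p = 0.0581) in the scaled test. Without the pair as a block neither passed, with adjusted p = 0.0968 and 0.669, and without replicate 4 the scaled test passed (adjusted p = 0.0424). The authors' deposited table gave a log2 fold of -0.35 with an adjusted p of 0.811.

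The oleosin ole1 was the most abundant of the 7, above 98.5% of tested genes by its normal mean. Its level was 448, 319, 499 and 275 TPM in normal replicates 1 to 4 and 414, 370, 224 and 293 TPM in the paired ded1-ref libraries. The groups overlapped widely, and the ded1-ref library was higher in 2 of 4 pairs. The mean was 385 ± 105 TPM in normal and 325 ± 84.0 TPM in ded1-ref (SD, n = 4). The limma change was -0.24 ± 0.19 (SE, adjusted p = 0.253) in the TPM test and 0.60 ± 0.17 (adjusted p = 0.0306) in the scaled test, so its direction depended on the scale. In scaled TPM the normal libraries ran from 207 to 368 and the ded1-ref libraries from 372 to 607, apart by a small margin, as for 12.0% of tested genes in that direction. The scaled call was lost without the filter (adjusted p = 0.0863), without the block (0.105) and without replicate 1, 2 or 4 (0.125, 0.106 and 0.117). The authors' deposited table gave a log2 fold of 0.56 with an adjusted p of 0.114.

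The ratio of TIP3-1 to ole1, which needs no scaling, was 0.0408 to 0.0489 in normal and 0.134 to 0.196 in ded1-ref libraries. The narrow range in normal endosperm stands beside levels of each gene that differed between those same libraries.

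Emb12, the plastid translation factor, was the second most abundant and fell. Its level was 110, 154, 125 and 145 TPM in normal replicates 1 to 4 and 42.5, 66.0, 41.2 and 56.3 TPM in the paired ded1-ref libraries. The groups did not overlap, as for 52.6% of tested genes in this direction in TPM and 12.0% in scaled TPM. The mean went from 133 ± 19.8 to 51.5 ± 11.8 TPM (SD, n = 4), 2.59-fold lower in TPM and 1.46-fold lower in scaled TPM. The gene fell, with a change of -1.37 ± 0.13 (SE, limma adjusted p = 5.99e-06) in the TPM test and of -0.54 ± 0.12 (adjusted p = 0.0114) in the scaled test, in 4 of 4 pairs. Without replicate 1 or 2 the scaled test just missed the threshold (adjusted p = 0.0513 and 0.0516). The authors' deposited table gave a log2 fold of -0.54 with an adjusted p of 0.00154.

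**Figure D2:**
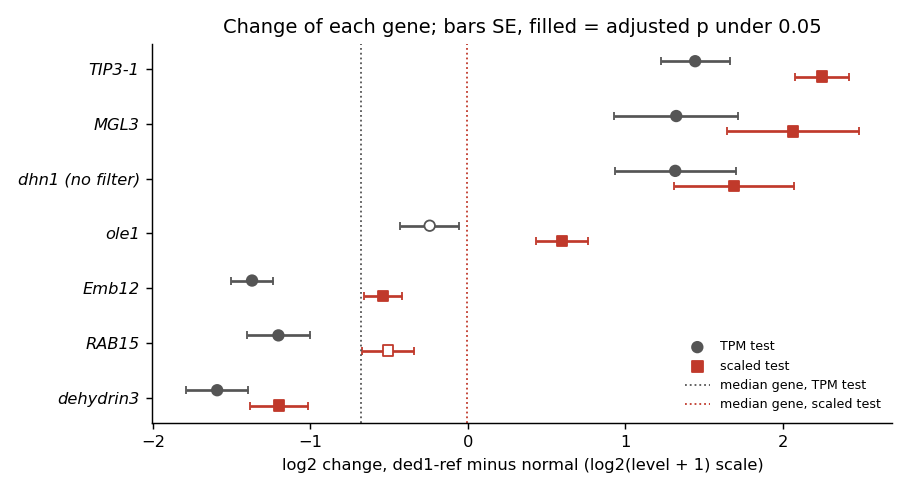
Change of each gene, ded1-ref minus normal, on the log2 scale, in the TPM test and in the scaled test; bars are the SE, filled points had an adjusted p under 0.05, dotted lines mark the median gene, and dhn1 was tested without the filter. TIP3-1 and MGL3 lie above 0 and Emb12 and dehydrin3 below 0 on both scales, while ole1 is at -0.24 in the TPM test and at 0.60 in the scaled test.

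Ordered by mean level, normal endosperm had ole1, Emb12, TIP3-1, RAB15, MGL3, dehydrin3 and dhn1. The ranges of TIP3-1 and RAB15 overlapped, as did those of RAB15 and MGL3, and the other neighbours were apart. In ded1-ref the order was ole1, Emb12, TIP3-1, MGL3, RAB15, dhn1 and dehydrin3, and the ranges of all neighbours from Emb12 to dhn1 overlapped. TPM is per length, so these levels can be set against each other. The ratio of TIP3-1 to Emb12 was 0.0824 to 0.199 in normal and 0.695 to 1.31 in ded1-ref libraries. In TPM, ded1-ref replicate 3 was the lowest ded1-ref library for 5 of the 7 genes, and in scaled TPM for 2.

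Among other oil body and seed oil genes, 9 were found and 7 tested. In both tests 1 rose, OBAP1A, which encodes an oil body associated protein, from 63.6 ± 28.6 to 87.8 ± 12.3 TPM (SD, n = 4). Its limma change was 0.55 (adjusted p = 0.025) in the TPM test and 1.38 (adjusted p = 4.33e-04) in the scaled test, and the TPM call was lost without the filter (0.103), without the block (0.0595) and without replicate 2 (0.132) or 4 (0.084). In the scaled test 4 of the 7 passed as higher and 0 as lower, beside 12.3% and 10.6% of all tested genes. In the TPM test 1 passed as higher and 2 as lower, beside 3.53% and 69.8%. The related OBAP2A and OBAP2B passed only in the scaled test, with changes of 1.15 (limma adjusted p = 0.022) and 1.04 (adjusted p = 0.0159). Those calls were lost without the filter (0.0815 and 0.0721), for OBAP2A also without replicate 1, 2 or 4 (0.081, 0.076 and 0.066) and for OBAP2B without replicate 2 or 4 (0.0805 and 0.0538). Without replicate 3 both passed as higher in the TPM test too (0.00458 and 0.0116). A second oleosin, oleosin4, was like ole1 in this. Its mean was 78.9 ± 22.1 TPM in normal and 70.4 ± 18.4 TPM in ded1-ref, with a change of -0.16 (limma adjusted p = 0.455) in the TPM test and 0.67 (adjusted p = 0.0159) in the scaled test. The scaled call of oleosin4 was lost without the block (0.0734) and without replicate 1, 2 or 4 (0.0831, 0.0557 and 0.0551). The desaturase gene fad2 and DGAT1-2, which encodes the last enzyme of triacylglycerol synthesis, passed as lower in the TPM test alone (limma adjusted p = 0.0342 and 0.0414), with scaled changes of 0.36 and 0.08. The call of fad2 was lost in 6 of 10 alternatives and that of DGAT1-2 in 8 of 10, among them no filter (0.0976 and 0.106), no block (0.0664 and 0.0545), limma-voom (0.115 and 0.0615) and without replicate 3 (0.195 and 0.164) or 4 (0.0553 and 0.0729). For DGAT1-2 it was also lost without replicate 1 (0.154). Another desaturase gene, FAD2 (GRMZM2G056252), had a change of -0.40 (limma adjusted p = 0.0786) in the TPM test and 0.02 (adjusted p = 0.948) in the scaled test. The median change of the 7 was -0.16 in the TPM test and 0.67 in the scaled test, beside -0.68 and -0.0031 over all tested genes.

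**Figure D3:**
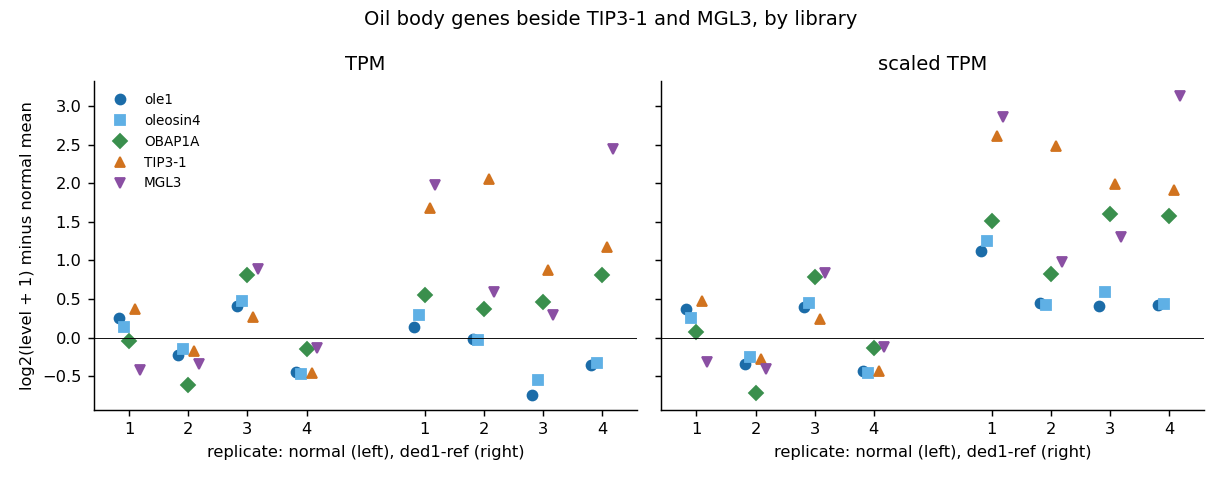
Profiles of ole1, oleosin4, OBAP1A, TIP3-1 and MGL3 over the 8 libraries, as log2(level + 1) minus the gene's normal mean, in TPM and in scaled TPM; each point is 1 library. The points of ole1 and oleosin4 lie close to each other in every library, and TIP3-1 lies above them in all 4 ded1-ref libraries.

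Other dehydrin and LEA genes were scarce. Of 3 found, only dehydrin7 was tested, and it passed neither test, with a change of -0.36 (limma adjusted p = 0.121) in the TPM test and 0.08 (adjusted p = 0.761) in the scaled test. Of embryo storage and seed tonoplast genes 5 were found and 3 tested. Of these 0 passed both tests in the same direction, beside 3.53% of all tested genes as higher and 10.6% as lower. The globulin gene glb3 passed both in opposite directions, with a mean of 1022 TPM in normal and 815 TPM in ded1-ref. Its change was -0.35 (limma adjusted p = 0.0257) in the TPM test and 0.50 (adjusted p = 0.0336) in the scaled test. Its TPM call was lost in 6 of 10 alternatives, among them no filter (0.0766), no block (0.0827), no zein genes (0.354) and without replicate 2 (0.0572) or 3 (0.117). Its scaled call was lost in 5 of 10, which were no filter (0.0918), no block (0.0627) and without replicate 1 (0.171), 3 (0.056) or 4 (0.136). The peroxiredoxin gene per-1 passed only as higher in the scaled test (change 0.58, limma adjusted p = 0.0482), a call lost in 8 of 10 alternatives, among them no filter (0.149), no block (0.0957) and without replicate 1, 2 or 4 (0.174, 0.154 and 0.12). The gene glb1, for a storage globulin of the embryo, passed neither test.

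Genes of abscisic acid synthesis, signalling and maturation were also mixed. Of 24 found, 14 were tested, and both tests passed for 2 as higher and 3 as lower, beside 3.53% and 10.6% of all tested genes. The kinase gene SnRK2.7 fell from a mean of 32.1 to 2.87 TPM, a change of -3.12 (limma adjusted p = 1.09e-06) in the TPM test and of -2.40 (adjusted p = 1.94e-04) in the scaled test. SnRK2.11 fell from 156 to 54.9 TPM. The receptor gene PYL10 (GRMZM2G165567) fell from 3.44 to 0.952 TPM, though its scaled call was lost without the filter (adjusted p = 0.0656), without the block (0.0785) and without replicate 1 (0.0721). A second PYL10 gene, GRMZM2G063882, passed as lower in the TPM test alone (limma adjusted p = 0.0167), with a scaled change of 0.06 (adjusted p = 0.836). The receptor gene PYL2 passed as lower in the TPM test alone, from 29.4 to 13.5 TPM, with a scaled change of -0.31 (limma adjusted p = 0.197). SnRK2.5 rose from 53.6 to 79.5 TPM, with changes of 0.54 (limma adjusted p = 0.00484) and 1.37 (adjusted p = 1.02e-04). The receptor gene PYL3 (GRMZM2G047677) was at a mean of 0.962 TPM in normal and 1.76 TPM in ded1-ref, with 3 of 4 normal libraries under 1 TPM. It passed both limma tests (adjusted p = 0.0436 in TPM and 0.0137 scaled), but its TPM call was lost in 6 of 10 alternatives, which were no filter (0.135), a pseudocount of 0.1 TPM (0.0667), no block (0.0598) and without replicate 1 (0.0587), 3 (0.187) or 4 (0.0942). Its scaled call was lost without the filter (0.0685). Another PYL3 gene, GRMZM2G154987, went the other way and passed as lower in the TPM test alone (limma adjusted p = 0.0347). Its scaled change was -0.07 (adjusted p = 0.869). PYL6, PYL7 and PYL8 passed as higher in the scaled test alone, with changes of 0.92, 0.75 and 1.14, and the call of PYL7 (limma adjusted p = 0.0467) was lost in 7 of 10 alternatives, without each single replicate among them (0.0509 to 0.145). In all, the TPM test passed 2 as higher and 8 as lower of the 14, where 3.53% and 69.8% of all tested genes passed. The scaled test passed 5 as higher and 3 as lower, where 12.3% and 10.6% passed. The median change of the 14 was -0.55 in the TPM test and 0.0069 in the scaled test.

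Of 23 aquaporins of the tonoplast and plasma membrane, 5 were tested. Only PIP2-1 passed both tests and fell, from 47.9 to 16.7 TPM, where 10.6% of all tested genes passed both as lower. The genes pip2b and TIP1-2 passed as higher in the scaled test alone, a test in which 12.3% of all tested genes did. TIP4-2 and TIP4-4 passed neither, with changes of -0.36 each in the TPM test and of 0.20 and 0.28 in the scaled test. A second TIP3 gene, TIP3-2, was under the filter, at no more than 0.709 TPM in any library. Over the 5 lists together 30 of 63 genes were tested, with 3 passed as higher and 4 as lower in both tests, beside 3.53% and 10.6% of all tested genes. The median change of the 30 was -0.35 in the TPM test and 0.32 in the scaled test.

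**Figure D4:**
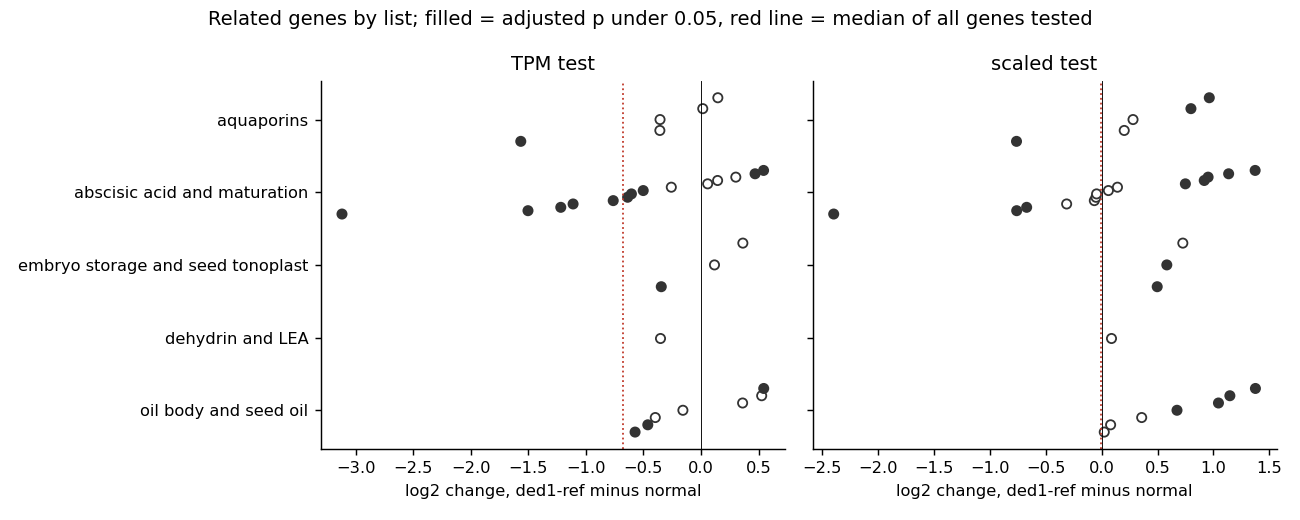
Changes of the tested genes of the related lists, ded1-ref minus normal, on the log2 scale in the TPM test and the scaled test; each point is 1 gene, filled where the adjusted p was under 0.05, and the dotted line is the median of all tested genes. In the scaled test 4 of 7 oil body genes passed as higher, beside 12.3% of all tested genes, and the abscisic acid genes spread to both sides of 0.

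Since oleosins and LEA genes are also active in the aleurone, markers of that layer were set beside them. Of 11 markers 8 were tested, and 3 passed as higher and 4 as lower in the TPM test, beside 3.53% and 69.8% of all tested genes. In the scaled test 3 passed as higher and 0 as lower, beside 12.3% and 10.6%. The markers bronze-2 and a2 reached the filter through their ded1-ref libraries alone, being under 1 TPM in every normal library. Their calls, counted among those higher, are therefore no support for a higher level of aleurone markers. The summed level of the 11 markers was 67.1 to 87.1 TPM in normal and 34.4 to 65.7 TPM in ded1-ref. In scaled TPM it was 54.4 to 62.5 against 54.7 to 96.4. IDDveg9 made up the largest part in normal libraries, at 27.3 to 50.9 TPM, against 4.95 to 16.4 TPM in ded1-ref. In TPM, vpp1, IDDveg9 and dek1 were lower in every ded1-ref library than in any normal one, as were 52.6% of tested genes. By contrast, bronze-2 and a2 were higher in every ded1-ref library than in any normal one, as were 2.14% of tested genes. Their place among the tested genes itself came from their ded1-ref libraries. The groups overlapped for c1, cr4 and Sal1. Genes of the basal transfer layer, which takes up sugar from the mother plant, summed to 523 to 1297 TPM in normal and 160 to 313 TPM in ded1-ref, which do not overlap, and to 393 to 957 against 190 to 521 in scaled TPM, which do. Of the 10 tested, 10 passed as lower in the TPM test and 9 in the scaled test, beside 69.8% and 10.6% of all tested genes. The part of either layer in the changes above was not tested. The 4 maternal tissue markers found were all under the filter.

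The genes with the most similar profiles were sought among 1258 tested genes with a name, by the root mean square difference over the 8 libraries in log2(TPM + 1) centred on the normal mean. The nearest to ole1 was the other oleosin, oleosin4, at 0.104, followed by TENA2 at 0.212. The nearest to TIP3-1 were the glutathione transferase genes bronze-2 at 0.323 and gst19 at 0.370. The aleurone marker bronze-2 had a normal mean of only 0.169 TPM, where log2(TPM + 1) leaves little room to vary. For Emb12 they were BT2B at 0.0927 and HAK12 at 0.111, and for dehydrin3 AMADH1A at 0.197 and an actin gene at 0.210. MGL3 had HMT-4 at 0.546 and sip1 at 0.617, and RAB15 had fps at 0.827 and LC-FACS at 0.878, so no named gene came as near to these as oleosin4 did to ole1.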

How the data were processed

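Per the labels' protocols, total RNA was made into non-strand-specific libraries and read from both ends, so reads of overlapping and antisense genes cannot be told apart. The submitters' processing notes name cutadapt 1.1, Trimmomatic 0.22 and GSNAP. How reads were counted, on which genome build, and how reads shared by near-identical genes were treated is not stated there or in the labels, so no positions are printed. The authors deposited TPM for each transcript and library, and a second table with, per the file headers, a mean normalized signal, a log2 fold change and its error, also in log2 units, a test score, and a p-value with its adjusted form for each transcript. The score has the opposite sign to the fold and was not used.

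TPM were summed per gene. Because TPM are not counts, limma 3.58.1 in R 4.3.3 was fitted to log2(TPM + 1), with a trend, over all 8 libraries. The pair is the main design since the labels describe sibling pairs; deviations of paired libraries correlated at 0.115, 0.333, 0.309 and 0.149. With the authors' mean signal, the TPM gave whole reads for 100% of 236228 values above 0, within 0.05 reads. Those reads were used for depth and for an alternative fit with limma-voom. Scripts were tested on simulated data. The 7 genes and all lists were chosen with earlier results of these data known. Of each list, the text names up to 4 tested genes with the smallest adjusted p in the TPM test, and any needed where 5 or fewer passed. Second genes that share a name with one of these are also given. Symbol matches of another gene were corrected by hand. With the pair as a block, p-values set the mean difference between paired pools against how much that difference varied from pair to pair. They speak for these pools only.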

Additional observations from a re-analysis of the deposited data

Results flagged for a closer look

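In 3 of 28 sets of 4 libraries (7 genes, 2 groups, 2 scales), 1 library stood so far from the other 3 that its gap, as a share of the whole range, was above Dixon's critical value. Chance flags about 5% of sets. For MGL3, normal replicate 3 was the highest library, at 11.3 TPM and at 8.35 in scaled TPM. For ole1, ded1-ref replicate 1 was the highest in scaled TPM, at 607.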

How the results depend on the processing

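The changes of TIP3-1 and dehydrin3 kept their direction and their call on both scales under every alternative run: no filter, a pseudocount of 0.1 TPM, no replicate block, each replicate left out, transcript entries, zein genes removed (TPM only), upper quartile factors (scaled only) and limma-voom. With limma-voom, dehydrin3 changed by -3.34 and -2.63. Without the replicate block, the TPM test called 402 genes higher and 8842 lower (482 and 9539 with it), and the scaled test 1397 and 1242 (1687 and 1444 with it). The cause was not tested for any of the following. Leaving out a replicate gave 917 to 1209 scaled lower calls over all genes, with 917 without replicate 2. Of the 6 tested genes described, 1 to 3 passed as lower in the scaled test, with 1 without replicate 1 or 2. Over the related lists, higher calls in the TPM test went from 3 to 1 without the filter and to 1 without the block, and ran from 1 to 6 with a replicate left out. Lower calls there went from 12 to 6 with limma-voom on library totals and ran from 6 to 12, with 6 without replicate 3. Scaled higher calls went from 13 to 7 without the filter and ran from 7 to 12. Signs turned, for values that had not passed, with a replicate left out, where TPM changes ran from -0.39 to 0.062 for ole1, -0.26 to 0.13 for oleosin4, -0.018 to 0.31 for PYL6, -0.17 to 0.18 for PYL7, -0.075 to 0.35 for pip2b and -0.12 to 0.17 for TIP1-2. The scaled changes then ran from -0.079 to 0.15 for FAD2, -0.087 to 0.19 for DGAT1-2 and -0.0081 to 0.16 for dehydrin7. Without zein genes the TPM change of oleosin4 was 0.055, and over transcript entries the scaled change of FAD2 was -0.15. Depth limits dhn1 and dehydrin3 most, with 28 reads over the normal and 21 over the ded1-ref libraries.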
